A study of Mus with 6 samples.

Results

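Small noncoding RNA genes were examined in RNA-seq libraries of Cntnap4 knockout (KO) and wild-type (WT) mice, made from the basolateral amygdala, a brain nucleus known for its role in fear and emotional learning. Cntnap4 encodes a neuronal cell-adhesion protein. The genes were those annotated as miRNA, snoRNA, snRNA, scaRNA or misc_RNA in the deposited table, not placed on mitochondrial DNA, with a mean of at least 2 FPKM (a read count divided by gene length and by library size) over the 6 libraries. The rule left 55 of 5712 such genes, out of 54532 genes in all. Members were thus chosen by their mean FPKM over all 6 libraries, so the levels below are a description, while the difference between genotypes was not part of it. The 3 KO libraries carry the genotype label CNTNAP4-KO and the 3 WT libraries the label Wild type, and all 6 are labelled female. The labels give neither the knockout allele nor the strain, age or treatment, and leave it unsaid whether the libraries of a group came from different animals, so the tests measure the spread between libraries. Total RNA was the input of a SMARTER mRNA-Seq kit, per the labels' protocols.

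These classes have different jobs in the cell. miRNA genes are transcribed as long primary transcripts, from which Drosha and Dicer cut a hairpin and then the short mature strand that guides Argonaute proteins to messenger RNAs. snoRNAs guide ribose methylation (C/D box, Snord genes) or pseudouridylation (H/ACA box, Snora genes) of ribosomal RNA, and most of them in mammals are released from introns of other genes. snRNAs form the core of the spliceosome, scaRNAs guide the modification of snRNAs in Cajal bodies, and misc_RNA holds structured RNAs that fit none of these. Mature forms of most of these RNAs have no poly(A) tail, and mature miRNAs are much shorter than the genes tabulated here, so a read on such a gene may come from a precursor or from a longer transcript that contains it. The values do not separate these sources.

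The libraries held 15933029 to 17789798 recovered reads (FPKM times gene length, divided by the worth of 1 read), and 22166 to 23375 genes had a read. Cntnap4 was at 1.18 ± 0.10 FPKM in KO and 3.20 ± 0.92 FPKM in WT (SD, n = 3 each), a log2 fold change of -0.92 with a limma adjusted p of 0.302. The excitatory neuron marker Slc17a7 stood at 201 to 364 FPKM in KO and 208 to 285 FPKM in WT. Camk2a, also of excitatory neurons, was at 440 ± 20.9 FPKM in KO and 431 ± 81.1 FPKM in WT. Rspo2, of the same cells, was at 3.14 ± 0.89 and 2.95 ± 0.86 FPKM, and Gad2 (GABA neurons) at 39.9 ± 5.36 and 42.0 ± 6.12 FPKM (SD, n = 3 each). These markers overlapped between the groups. Some other markers of brain cell types did not, and neither did 22% of all genes tested. Neurod6 (excitatory neurons) and Gad1 (GABA neurons) were at 30.0 ± 3.67 and 55.5 ± 4.57 FPKM in KO and 14.1 ± 6.13 and 48.5 ± 3.94 FPKM in WT. Slc32a1 (GABA neurons) was at 38.2 ± 4.27 FPKM in KO and 49.5 ± 5.46 FPKM in WT, and of 4 microglial markers C1qa was at 23.4 ± 3.85 FPKM in KO and 43.4 ± 6.66 FPKM in WT and Tmem119 at 7.35 ± 0.85 and 11.04 ± 1.33 FPKM, while Cx3cr1 and P2ry12 overlapped (SD, n = 3 each). The library labelled KO replicate 3 (KO3) and the one labelled WT replicate 3 (WT3) stood apart from the others of their groups by markers of the neighbouring striatum, with Drd2 at 20.6 FPKM in KO3 and 56.5 FPKM in WT3 and 0.26 to 2.06 FPKM in the other libraries. Fits without each library and without both numbered 3 were made, while the part of the cell markers in the results below was not tested. In bulk tissue, fewer cells of a type and less RNA per cell cannot be told apart.

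Most small RNA genes had no read at all. Of the 5712 genes, 850 had at least 1 read in some library and 4862 had none. The 55 members were 24 of 2207 miRNA genes, 17 of 1507 snoRNA genes, 11 of 1385 snRNA genes, 1 of 51 scaRNA genes and 2 of 562 misc_RNA genes. Genes of several well-known noncoding RNAs, among them the abundant 7SK and 7SL RNAs, were listed at 0 or below 2 FPKM in every library. The 7SK RNA gene Rn7sk, whose product holds back a transcription elongation factor, was at 0.92, 0 and 1.47 FPKM in KO1, KO2 and KO3 and at 0, 0.19 and 1.61 FPKM in WT1, WT2 and WT3. The 7SL genes of the signal recognition particle were lower still, with Rn7s1 listed at 0 in all 6 libraries and Rn7s2 at no more than 0.38 FPKM. Rny1 and Rny3 (Y RNAs), Terc (the telomerase template) and Rmrp (the RNase MRP RNA) were listed at 0 in all 6, Rpph1 (the RNase P RNA) had reads in WT1 alone, at 0.17 FPKM, and the vault RNA gene Vaultrc5 in WT2 alone, at 1.75 FPKM. The sources used here do not say how reads that match several genes were counted. A listed 0 therefore does not show that the RNA was absent.

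The genes were short, and FPKM overstated how much was measured. Members were 56 to 301 bases long with a median of 91, against a median of 3422 bases for protein-coding genes. The members' mean read numbers were between 2 and 3843 per library with a median of 7.67, and 37 of the 55 rested on fewer than 10 reads per library. Only 9 had 20 reads or more. At the threshold, Mir697, Mir5119 and Mir7240 lay just inside at 2.11, 2.11 and 2.18 FPKM, with 3.83, 2 and 2.17 reads, and Mir339, Gm27686 and the snoRNA gene Gm25857 just outside at 1.99, 1.99 and 1.99 FPKM, with 3.33, 3.17 and 4.33 reads. A read in a gene of this length is worth so much FPKM that membership near the threshold turned on a fraction of a read per library on average.

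**Figure D1:**
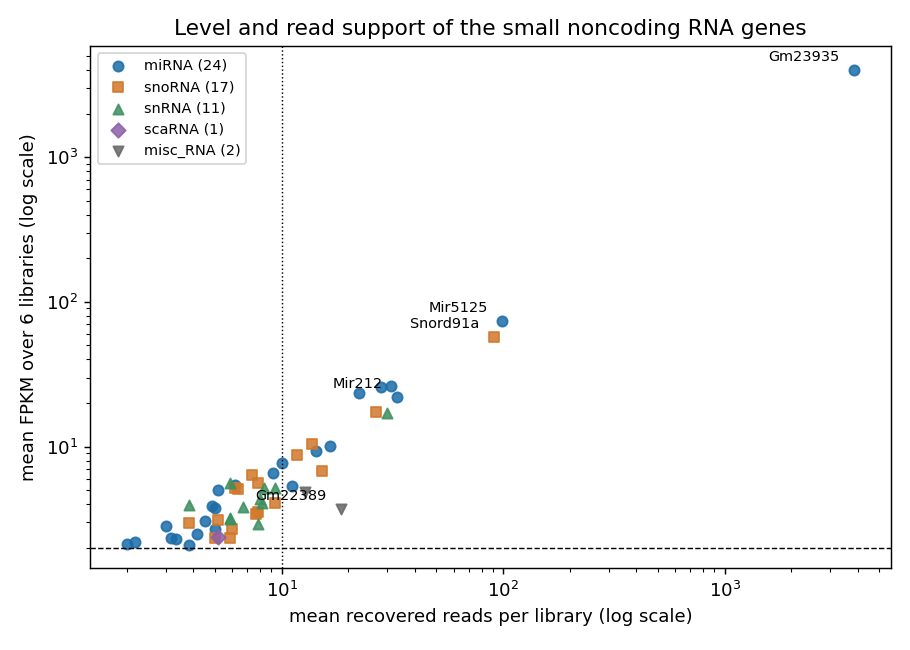
Mean FPKM (y axis, log scale) against mean recovered reads per library (x axis, log scale) for the 55 members, 1 point per gene, coloured by biotype. The dashed line marks 2 FPKM and the dotted line 10 reads; Gm23935 stands alone at 3843 reads and 37 genes lie left of the dotted line.

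The members' reads were dominated by 1 gene, Gm23935, annotated as a miRNA. It lies on chromosome 16 from 11144125 to 11144181 (GRCm38, plus strand, ENSMUSG00000076258), inside Zc3h7a on the opposite strand. It took 84.1% to 89.9% of the members' reads in KO and 63.4% to 86.4% in WT. Its level was 6544, 4833 and 5889 FPKM in KO1, KO2 and KO3, and 933, 1319 and 4595 FPKM in WT1, WT2 and WT3. All KO values lay above all WT values, and WT3 lay close to KO2 and far from the other WT libraries. KO exceeded WT by 1.68 (SE 0.55) on the log2 scale, short of the 0.05 threshold at a limma adjusted p of 0.303 (13087 genes tested). Without WT3 the log2 fold change was 2.36 and the adjusted p 0.0387, without KO2 the adjusted p was 0.684, and the range over all 17 alternatives was 0.0387 to 0.684.

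An rRNA gene moved with Gm23935 from library to library. CT010467.1, annotated as rRNA on chromosome 17 from 39846353 to 39848827, was chosen for this after its values were seen. It was at 1074, 718 and 731 FPKM in KO1, KO2 and KO3, and at 142, 195 and 566 FPKM in WT1, WT2 and WT3 (log2 fold change 1.72, SE 0.48, limma adjusted p = 0.302). The ratio of Gm23935 to CT010467.1 within a library was 6.09, 6.73 and 8.06 in KO1, KO2 and KO3, and 6.59, 6.77 and 8.12 in WT1, WT2 and WT3. Between the highest and the lowest library, Gm23935 differed 7.01-fold and this ratio 1.33-fold. Lars2, the mitochondrial leucyl-tRNA synthetase, also picked after its values were seen, was at 15.3, 12.1 and 18.0 FPKM in KO1, KO2 and KO3, and at 3.12, 3.71 and 11.3 FPKM in WT1, WT2 and WT3, and the ratio of Gm23935 to it differed 1.43-fold between the highest and the lowest library. Genes of the rRNA biotype off mitochondrial DNA took 0.179% to 0.256% of reads in KO and 0.0369% to 0.139% in WT. Zc3h7a, which contains Gm23935 on the other strand, was at 3.61 ± 0.66 FPKM in KO and 3.27 ± 0.54 FPKM in WT (SD, n = 3 each). Avp, a hypothalamic neuropeptide, was at 11.3 FPKM in WT1 and 2.16 FPKM in WT2, the libraries lowest in Gm23935, and at 0.11 to 0.62 FPKM in the other 4. Other hypothalamic genes did not all follow Avp. Oxt was at 2.39 FPKM in WT1 but at 0.23 FPKM in WT2, below KO3 at 1.13 and WT3 at 0.88 FPKM. Hcrt was at 0.43 FPKM in WT1, 0.17 FPKM in WT2 and 0.08 FPKM or less elsewhere. Pmch was at 0 in WT1 and WT2 and had reads in KO1 and KO2 alone. The part of rRNA or of Avp-expressing tissue in the level of Gm23935 was not tested.

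**Figure D2:**
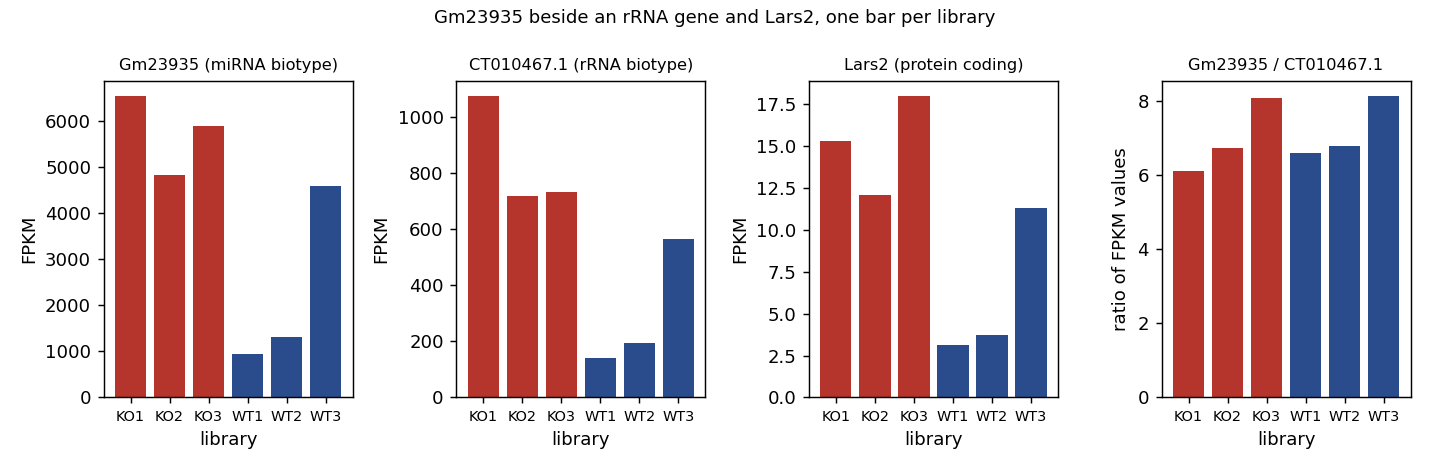
FPKM of Gm23935, CT010467.1 and Lars2 and the ratio of Gm23935 to CT010467.1 (y axes, from 0), 1 bar per library, KO in red and WT in blue. The 3 genes are low in WT1 and WT2 and high in the other 4 libraries, while the ratio lies between 6.09 and 8.12 in all 6.

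The share of reads on members followed this gene. Members took 0.0392% ± 0.00396 of the reads off mitochondrial DNA in KO and 0.0181% ± 0.0129 in WT (SD, n = 3 each), a difference of 0.0211 percentage points with an exact two-sided permutation p of 0.1, the smallest that 3 libraries against 3 can give. With Gm23935 left out, an alternative chosen after its values were seen, the share was 0.00481% ± 0.000657 in KO and 0.004% ± 0.000542 in WT, a difference of 0.000811 with an exact permutation p of 0.2.

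Over all members, KO and WT were compared with limma on log2(FPKM + 1), two-sided, over the 13087 genes with a mean of at least 1 FPKM, so fold changes understate the change of low genes. None of the 55 members passed an adjusted p of 0.05 (0 of 55), against 0.00764% of all genes tested, which is 1 gene (0 with the replicate number as a block). The smallest adjusted p of a member was 0.302. At an unadjusted p under 0.05 there were 8 members higher in KO, against 7.05% of all genes, and 2 lower, against 7.25%. These shares are not on equal terms, since members had to reach 2 FPKM and other genes 1 FPKM. Of these 10 members, 5 had a mean under 2 FPKM in their lower group and reached the rule through the other, namely Mir7240, Gm25005, Snord53, Snora17 and Snora57, so the counts are a description. With voom on the recovered reads these were 3 higher and 1 lower, and with the pseudocount added on the read scale 2 higher and 1 lower. The KO values lay all above the WT values for 5 members, against 11.9% of all genes, and all below for 2, against 10.1%. The remaining 48 overlapped between the groups.

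The members' fold changes leaned towards higher values in KO without any gene passing the test. Of the 55, 38 had a log2 fold change above 0, against 51.3% of all genes tested. Their median was 0.26, against 0.01 over all genes tested. By class the median was 0.26 for miRNA, 0.14 for snoRNA and 0.43 for snRNA genes. Without KO2, the library in which 15 members were highest, the median over members was 0.10. Without WT1, 33 of the 55 were above 0.

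**Figure D3:**
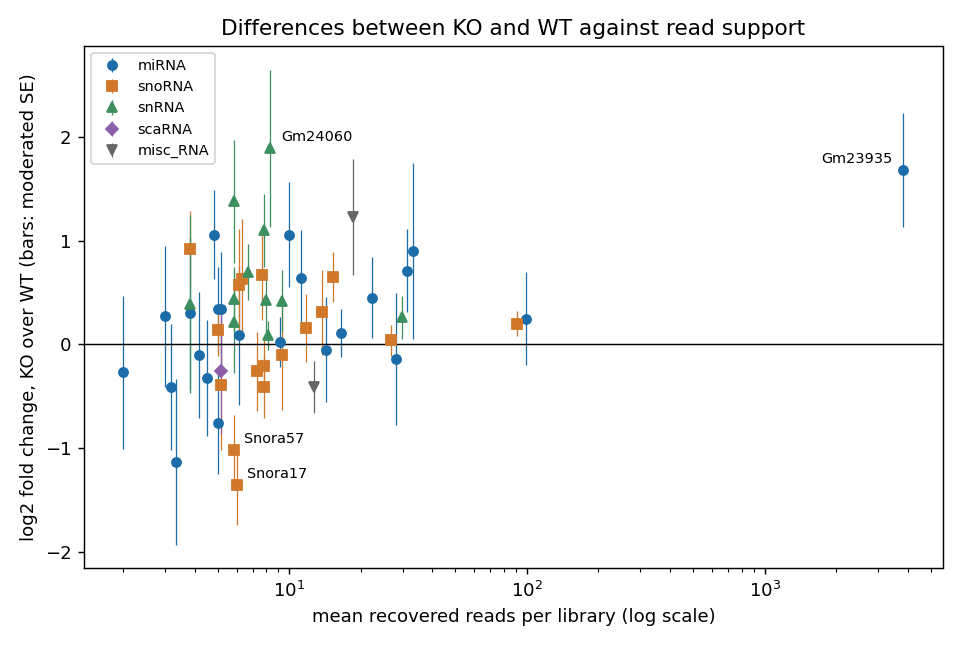
log2 fold change of KO over WT (y axis, bars are the moderated SE) against mean recovered reads per library (x axis, log scale) for 54 members; Mir7240, at 0 in all WT libraries, is left out. The widest scatter is among genes under 10 reads, and none of the members passed the threshold.

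Among miRNA genes with a name of their own, Mir5125 had the most reads. It lies on chromosome 17 from 23823291 to 23823369, inside Srrm2, which encodes a large protein of splicing speckles. Mir5125 was at 33.9, 120 and 98.3 FPKM in KO1, KO2 and KO3, and at 65.0, 46.6 and 78.0 FPKM in WT1, WT2 and WT3. KO held both the lowest and the highest library. Srrm2 was at 32.4 ± 3.26 FPKM in KO and 25.9 ± 4.20 FPKM in WT, so that the miRNA gene was on average 2.53 times as high per length as the gene that contains it. The log2 fold change of Mir5125 was 0.25 (SE 0.45, limma adjusted p = 0.804).

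Mir186, on chromosome 3 from 157544279 to 157544349, lies inside Zranb2, a splicing regulator. Its level was 16.3, 41.4 and 41.0 FPKM in KO1, KO2 and KO3, against 15.1, 14.1 and 28.4 FPKM in WT1, WT2 and WT3. The groups overlapped through KO1 (log2 fold change 0.71, SE 0.40, limma adjusted p = 0.441, and 1.14 without KO1), and Zranb2 was at 25.4 ± 3.82 FPKM in KO and 22.4 ± 1.72 FPKM in WT.

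Mir132 and Mir212 share a primary transcript that neuronal activity induces through the transcription factor CREB, and their mature strands carry the same seed. They lie on chromosome 11, Mir212 from 75173388 to 75173478 and Mir132 from 75173682 to 75173747, 203 bases apart, inside the noncoding gene 1700016P03Rik on the same strand. Mir212 was at 53.5, 29.1 and 6.0 FPKM in KO1, KO2 and KO3, and at 4.70, 29.5 and 9.11 FPKM in WT1, WT2 and WT3. Mir132 was at 28.6, 22.7 and 11.9 FPKM in KO1, KO2 and KO3, and at 14.6, 65.2 and 10.8 FPKM in WT1, WT2 and WT3. KO1, KO2 and WT2 were the highest libraries for both genes, in different order, and the groups overlapped. The containing gene 1700016P03Rik was at 14.5, 10.02 and 7.52 FPKM in KO1, KO2 and KO3, and at 4.46, 11.4 and 3.64 FPKM in WT1, WT2 and WT3, with KO1, WT2 and KO2 again the highest. Without 1 library the log2 fold change of Mir212 ran between 0.27 (without KO1) and 1.75 (without KO3), with 0.36 without WT1 and 1.57 without WT2. With all libraries it was 0.90 (SE 0.85) for Mir212, -0.14 (SE 0.64) for Mir132 and 0.74 for 1700016P03Rik, with limma adjusted p of 0.629, 0.93 and 0.408. Without WT2 the log2 fold change of Mir132 was 0.62.

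Mir421 lies inside Ftx, a long noncoding RNA of the X-inactivation centre, on chromosome X from 103572921 to 103572996. It was at 8.81, 13.7 and 7.99 FPKM in KO1, KO2 and KO3 and at 3.52, 1.64 and 10.9 FPKM in WT1, WT2 and WT3, overlapping through WT3 (log2 fold change 1.06, SE 0.51, limma adjusted p = 0.379; 0.57 without WT2 and 1.66 without WT3). The mean behind it was 10 reads. Mir23b, picked after its values were seen, rested on 5, 6 and 9 reads in KO1, KO2 and KO3 and 1, 2 and 6 reads in WT1, WT2 and WT3, with a log2 fold change of 1.06 (SE 0.43, limma adjusted p = 0.338; 0.66 without WT1). Mir7-1, whose hairpin sits in the gene of the RNA-binding protein Hnrnpk and whose mature strand is abundant in neurons and endocrine cells, was at 2.95 ± 0.87 FPKM in KO and 2.43 ± 1.71 FPKM in WT (SD, n = 3 each), while Hnrnpk itself was at 54.9 ± 1.75 and 53.3 ± 4.93 FPKM in the same groups.

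Mir6982 and Mir7220 both lie inside Camk2a, the alpha subunit of the calcium/calmodulin-dependent kinase of synaptic plasticity, on chromosome 18. Camk2a was at 440 ± 20.9 FPKM in KO and 431 ± 81.1 FPKM in WT. The miRNA genes were at about a hundredth of that level per length, with ratios to Camk2a of 0.0124 for Mir6982 and 0.0115 for Mir7220. Mir7220 was at 14.4 FPKM in KO2 and at 2.02 to 4.16 FPKM in the other 5 libraries. Mir6982 varied from library to library without separating the groups, with 3, 9 and 5 reads in KO1, KO2 and KO3 and 1, 6 and 13 reads in WT1, WT2 and WT3.

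The remaining named miRNA genes had 2 to 9.17 reads per library. Mir1898, inside Zfr, had the most reads of them and was at 7.33, 6.25 and 5.85 FPKM in KO1, KO2 and KO3 and at 4.51, 9.77 and 5.71 FPKM in WT1, WT2 and WT3. Mir7240 had 3 and 10 reads in KO1 and KO2 and was at 0 in KO3 and in all 3 WT libraries. Mir684-1 had 15 reads in WT3 and no more than 3 in any other library, and Mir221 had 12 reads in WT1 and no more than 5 in any other. Mir344-2 was at 2.24 ± 0.77 FPKM in KO and 5.28 ± 3.66 FPKM in WT, and Mir3093 at 2.27 ± 0.97 FPKM in KO and 3.90 ± 3.45 FPKM in WT (SD, n = 3 each). Mir496a was at 2.00 ± 1.73 FPKM in KO and 2.64 ± 1.61 FPKM in WT. Mir5119 and Mir697 were both at 0 in KO1 and in WT1.

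Besides Gm23935, 5 miRNA-annotated members carried only a model number. Gm24270, inside Peak1 on chromosome 9, was at 39.5, 13.2 and 30.9 FPKM in KO1, KO2 and KO3 and at 15.9, 15.3 and 24.9 FPKM in WT1, WT2 and WT3, which was 7.12 times the mean level of Peak1. Gm44483 and Gm24993 lay in no longer gene, the first at 10.4 ± 2.00 FPKM in KO and 9.74 ± 2.86 FPKM in WT, the second at 8.59 ± 3.07 FPKM in KO and 10.1 ± 6.33 FPKM in WT. Gm27353 had 29 reads in KO2 and 5 to 11 in the other libraries, and Gm27616 had 0 to 5 in all 6. None of these 5 separated the groups.

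**Figure D4:**
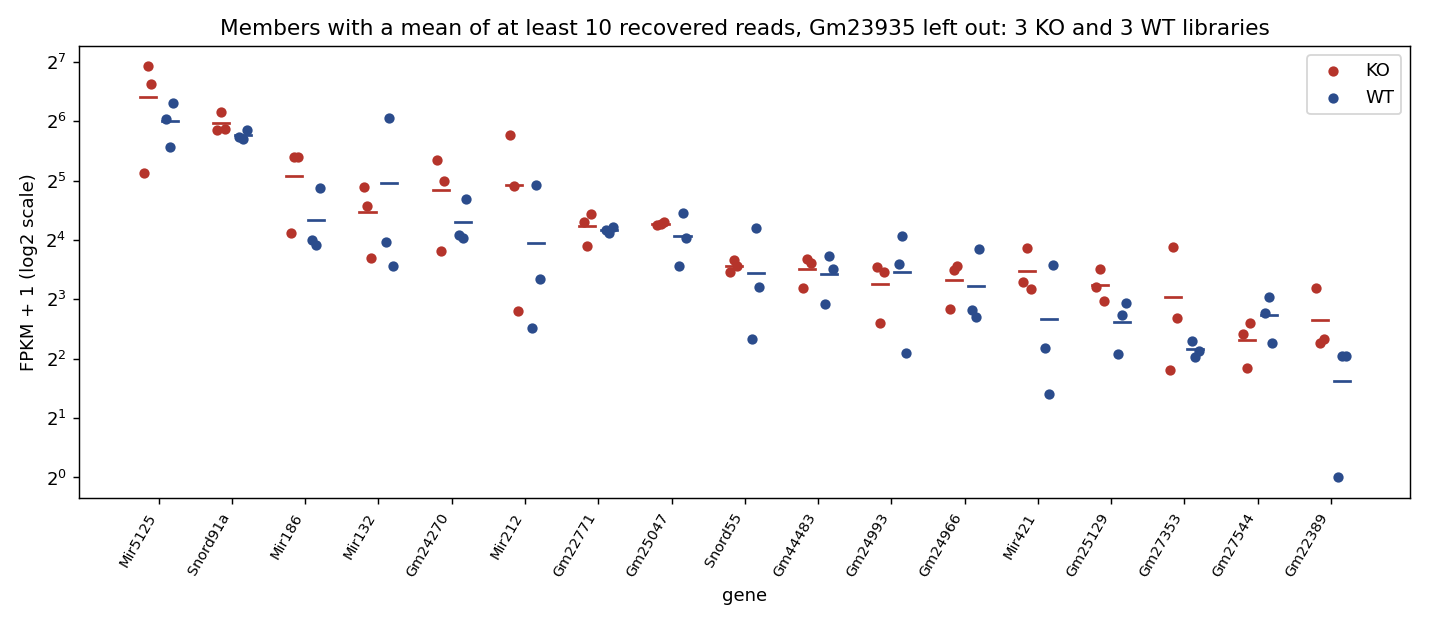
FPKM + 1 (y axis, log2 scale) of the 17 members other than Gm23935 with a mean of at least 10 recovered reads, 1 point per library, KO in red left of WT in blue; short lines are group means. Points of both groups mix for most genes, while Snord91a lies in a narrow band and Mir132 and Mir212 spread widely within each group.

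The most abundant snoRNA was Snord91a, a C/D box snoRNA on chromosome 11 from 74905424 to 74905516, inside Tsr1, whose product works in the maturation of the small ribosomal subunit. It was at 57.0, 70.7 and 57.4 FPKM in KO1, KO2 and KO3, and at 52.3, 51.0 and 56.7 FPKM in WT1, WT2 and WT3. All KO values lay above all WT values, by a margin of under 1 FPKM between the nearest libraries (log2 fold change 0.20, SE 0.12, limma adjusted p = 0.452, and 0.10 without KO2). The reads themselves overlapped, with 87, 114 and 88 in KO1, KO2 and KO3 and 91, 76 and 89 in WT1, WT2 and WT3. The separation thus rests on the division by library size. Tsr1 was at 10.6 ± 0.87 FPKM in KO and 9.01 ± 0.71 FPKM in WT, and the snoRNA stood at 4.98 to 7.21 times its level in KO and 5.19 to 6.65 times in WT. A second snoRNA of the same gene, Gm22771, 592 bases downstream, was at 18.7, 13.9 and 20.7 FPKM in KO1, KO2 and KO3 and at 17.0, 16.5 and 17.6 FPKM in WT1, WT2 and WT3.

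These Tsr1 snoRNAs were also among the members most even between libraries. An index of the spread of reads within groups, the chi-square over its degrees of freedom, is near 1 where counting alone sets the spread. It was 0.908 for Snord91a and 0.538 for Gm22771, against 19.2 for Mir132, 24.0 for Mir212 and 944 for Gm23935. Over the 55 members it ran from 0.189 to 944 with a median of 2.04, and 9 members were above 5. Reads from a library with amplification are not independent molecules, so the index covers counting error only.

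Several other snoRNA members sit in genes of the ribosome and of translation. Snord42b lies in Rpl23a, Snord72 in Rpl37, Gm22270 in Rpl5 and Snora31 in Tpt1, and these 4 were far below their genes per length, at 0.025 (Snora31) to 0.187 (Snord72) times the level. Rpl37 was at 26.2 ± 0.95 FPKM in KO and 34.1 ± 3.82 FPKM in WT, and Snord72 at 4.65 ± 1.44 FPKM in KO and 6.63 ± 2.52 FPKM in WT. Snord42b was at 5.82 ± 3.41 FPKM in KO and 6.87 ± 2.60 FPKM in WT, Snora31 at 3.23 ± 1.27 and 3.84 ± 1.10 FPKM, and Gm22270 at 4.38 ± 2.34 and 2.49 ± 1.82 FPKM in the same groups (SD, n = 3 each). Every one of these 4 overlapped between the groups. Snord55, a C/D box snoRNA, was at 10.8 ± 0.83 FPKM in KO and 9.89 ± 6.81 FPKM in WT (SD, n = 3 each), with overlap and a log2 fold change of 0.31 (SE 0.41).

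Gm25129, a snoRNA gene on chromosome 2 from 158379534 to 158379666 inside the snoRNA host gene Snhg11, was the member with at least 10 reads and, after Gm23935, the smallest p. It was at 8.24, 10.4 and 6.84 FPKM in KO1, KO2 and KO3, against 3.22, 5.63 and 6.68 FPKM in WT1, WT2 and WT3. KO lay above WT throughout, with KO3 and WT3 almost level (log2 fold change 0.65, SE 0.24, limma adjusted p = 0.323; 0.40 without WT1). Snhg11 was at 43.0, 110 and 88.8 FPKM in KO1, KO2 and KO3 and at 66.1, 49.2 and 83.6 FPKM in WT1, WT2 and WT3, with overlap.

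The members lower in KO with no overlap were both H/ACA box snoRNAs, and both rested on about 6 reads, so they fall outside the rule for named genes and were picked after their values were seen. Snora17, on chromosome 2 from 26639190 to 26639321, had 1, 6 and 1 reads in KO1, KO2 and KO3, against 7, 11 and 10 reads in WT1, WT2 and WT3 (log2 fold change -1.36, SE 0.38, limma adjusted p = 0.302). Snora57, on chromosome 19 from 8888538 to 8888685, had 2, 3 and 3 reads in KO1, KO2 and KO3, against 5, 6 and 16 reads in WT1, WT2 and WT3 (log2 fold change -1.02, SE 0.34, limma adjusted p = 0.303, and -0.61 without WT3). The C/D box gene Snord53 went the other way, with 7, 3 and 6 reads in KO1, KO2 and KO3 and 2, 4 and 1 reads in WT1, WT2 and WT3, and overlapped. Box class was read from the Snora and Snord names, and among genes so named neither class went 1 way without overlap. The H/ACA box gene Snora31 overlapped, with a log2 fold change of -0.21. Among C/D box genes Snord91a and Snord55 were at 0.20 and 0.31, and Snord72, Snord42b and Snord7 at -0.41, -0.26 and -0.39. The snoRNA members without such a name were not assigned to a class. Their log2 fold changes ran from -0.10 (Gm26397, alone below 0) to 0.67 (Gm22270). Snord7 was at 0 in KO3 and at 2.57 to 4.76 FPKM in the other 5 libraries, Gm26397 (inside Tomm20) was at 4.13 ± 2.81 FPKM in KO and 4.05 ± 2.28 FPKM in WT, and Gm25777 (inside Ranbp1) at 2.51 ± 1.00 FPKM in KO and 2.17 ± 0.78 FPKM in WT.

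Members from imprinted loci were few. Snhg14, the long paternal transcript of the Prader-Willi region that carries the neuronal Snord115 and Snord116 clusters, held 208 small RNA genes in the table, of which 13 had a read and 1, the snoRNA gene Gm24966, was a member. How reads that match several genes of such clusters were counted is not known. Gm24966 was at 6.17, 10.2 and 10.8 FPKM in KO1, KO2 and KO3 and at 6.09, 5.53 and 13.5 FPKM in WT1, WT2 and WT3, while Snhg14 was at 2.70 ± 0.25 FPKM in KO and 1.93 ± 0.28 FPKM in WT (log2 fold change 0.34, limma adjusted p = 0.318). In the maternal transcripts of the Dlk1-Dio3 region, Rian held 17 small RNA genes with 2 members, Gm23600 and DQ267102, and Mirg held 15 with 1 member, Mir496a. Gm23600 was at 5.90 ± 1.56 FPKM in KO and 4.53 ± 3.28 FPKM in WT, and DQ267102 at 6.30 ± 3.56 FPKM in KO and 3.94 ± 2.68 FPKM in WT (SD, n = 3 each). The reads over all small RNA genes inside Rian were 9, 46 and 26 in KO1, KO2 and KO3 and 22, 11 and 26 in WT1, WT2 and WT3. Those inside Mirg were 2, 23 and 21 in KO1, KO2 and KO3 and 15, 7 and 17 in WT1, WT2 and WT3. KO1 was lowest and WT2 next lowest for both transcripts, so the spread ran within each genotype.

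The snRNA members were low, 10 of them with under 10 reads, and all had a log2 fold change above 0 in the fit. They were 11 of 11, against 51.3% of all genes tested, with 10 or 11 under each alternative that kept all 11. Gm25005 and Gm23264 were at means of 1.66 and 1.85 FPKM in WT and reached the rule through KO. The count and the sums below are therefore a description. Gm25047, on chromosome X from 36363899 to 36364002 and outside any longer gene, had the most reads. It was at 18.1, 18.3 and 18.7 FPKM in KO1, KO2 and KO3 and at 10.8, 21.0 and 15.4 FPKM in WT1, WT2 and WT3, so that KO lay within the range of WT. Reads summed over the 11 genes were 99, 140 and 119 in KO1, KO2 and KO3 and 86, 74 and 79 in WT1, WT2 and WT3, so each KO library held more of them than each WT library. The same sums overlapped for the other classes, with 295, 459 and 340 reads in KO and 251, 309 and 314 in WT for the 23 miRNA genes other than Gm23935, 236, 277 and 217 reads in KO and 218, 209 and 263 in WT for snoRNA genes, and 51, 27 and 33 reads in KO and 17, 33 and 26 in WT for misc_RNA genes.

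Of single snRNA genes, Gm25005 was the one without overlap, at 3.90, 3.70 and 5.06 FPKM in KO1, KO2 and KO3 and 3.43, 0.80 and 0.76 FPKM in WT1, WT2 and WT3, although KO1, KO2 and WT1 each had 10 reads (log2 fold change 1.10, SE 0.35, limma adjusted p = 0.303). The RefSeq table lists it as a pseudogene. Gm24060, inside Cyth1, had 4, 20 and 16 reads in KO1, KO2 and KO3 against 1, 0 and 9 reads in WT1, WT2 and WT3 (log2 fold change 1.89, SE 0.76, limma adjusted p = 0.341), and Gm22573 had 5, 12 and 9 reads in KO against 6, 5 and 3 in WT (log2 fold change 0.70, SE 0.27, limma adjusted p = 0.331). Gm23264 was even in KO, with 8 reads in each library, and had 10, 0 and 1 reads in WT1, WT2 and WT3. Gm22540 was at 4.25 ± 0.55 FPKM in KO and 3.94 ± 0.69 FPKM in WT, Gm25596 at 6.13 ± 2.41 and 4.24 ± 1.45, Gm25328 at 5.01 ± 0.98 and 3.71 ± 1.88, Gm27343 at 5.72 ± 2.62 and 5.43 ± 4.15, Gm22753 at 3.71 ± 0.52 and 2.70 ± 1.64, and Gm25772 at 5.56 ± 6.27 and 2.35 ± 1.37 FPKM in the same groups (SD, n = 3 each). Gm24060, Gm22573 and Gm25005 were picked after their values were seen and rested on fewer than 10 reads.

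The misc_RNA members were Gm22389 and Gm27544. Gm22389, the longest member at 301 bases, on chromosome 18 from 16033746 to 16034046, had 40, 20 and 20 reads in KO1, KO2 and KO3 and 0, 15 and 16 reads in WT1, WT2 and WT3. KO lay above WT, with 20 against 16 reads at the nearest point (log2 fold change 1.23, SE 0.56, limma adjusted p = 0.369). Without WT1, the library at 0, the log2 fold change was 0.55. Ranked by FPKM it came 35th of the members, and ranked by reads 10th. Gm27544, inside the noncoding gene Rmst, was at 4.32, 2.60 and 5.09 FPKM in KO1, KO2 and KO3 and at 5.86, 7.25 and 3.82 FPKM in WT1, WT2 and WT3, with a log2 fold change of -0.41 (SE 0.25, limma adjusted p = 0.473). The scaRNA member, Gm25492 inside Bud23, was at 4.25, 1.34 and 0.47 FPKM in KO1, KO2 and KO3 and at 0.83, 1.45 and 5.97 FPKM in WT1, WT2 and WT3, with overlap.

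The members' position, which the rule did not use, was counted by class without a test. Of the 55 members, 48 lay inside a longer gene, 37 of them inside one on the same strand, and 7 lay in none. The snoRNA members lay in a longer gene on the same strand in 15 of 17 cases and the named miRNA genes in 15 of 18. Of the 11 snRNA members 2 did, while 7 lay inside a gene on the opposite strand. The sources used here do not say whether the authors' counting used strand, so reads of a gene and of a small RNA gene opposite to it may not be separated. Per length, 21 members were above the gene that contains them and 27 below it. The highest ratio was that of Gm23935 to Zc3h7a, at 1170, and Gm27353 was 64.6 times as high as Ccpg1.

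**Figure D5:**
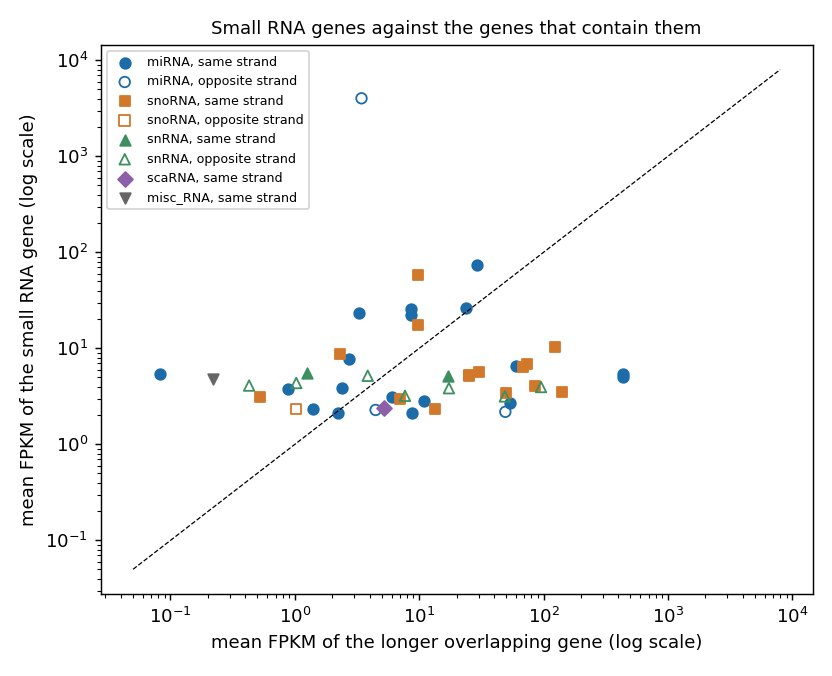
Mean FPKM of a member (y axis, log scale) against mean FPKM of the longer gene that contains it (x axis, log scale) for 48 members; filled symbols lie on the same strand, open symbols on the opposite one, and the dashed line marks equal levels. The members spread across the whole range of the longer genes' levels, with 21 above the line.

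The proteins that make and carry these RNAs were read from 6 lists. None of their members passed the threshold (0 higher and 0 lower in each list, against 0.00764% of all genes tested). Of 22 tested genes of miRNA processing, 18 had a log2 fold change above 0 (51.3% of all genes tested did), with a median of 0.17. At an unadjusted p under 0.05, 5 of them were higher and 0 lower, against 7.05% and 7.25% of all genes. Tnrc6b, a scaffold of the silencing complex, was at 5.14 ± 0.33 FPKM in KO and 3.63 ± 0.72 FPKM in WT, Ago3, an Argonaute, at 3.34 ± 0.37 and 2.48 ± 0.29, and Tut4, which adds uridines to miRNA precursors, at 4.14 ± 0.03 and 3.33 ± 0.28 FPKM in the same groups (SD, n = 3 each).

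For the proteins of snoRNA and snRNA particles, more genes had a log2 fold change below 0 than above, which was not tested as a list. Of 18 snoRNA protein genes 13 had a log2 fold change below 0 (median -0.11, 0 higher and 2 lower at an unadjusted p under 0.05), and of 31 spliceosomal snRNP genes 22 did (median -0.08, 0 higher and 6 lower), beside the same shares of 7.05% higher and 7.25% lower over all genes. Nhp2, a core protein of H/ACA snoRNAs, was at 18.9 ± 1.35 FPKM in KO and 25.2 ± 1.21 FPKM in WT, Pih1d1, of the complex that assembles snoRNA particles, at 10.1 ± 0.69 and 14.3 ± 2.77, and Nop10, also of the H/ACA core, at 18.2 ± 3.00 and 21.5 ± 2.16 FPKM. Lsm4 and Lsm7, of the ring that binds U6 snRNA, were at 17.5 ± 1.77 and 5.68 ± 0.72 FPKM in KO and at 24.0 ± 1.26 and 8.52 ± 1.53 FPKM in WT, and Lsm10, of the U7 particle that processes histone messenger RNAs, at 4.86 ± 1.28 FPKM in KO and 6.98 ± 0.80 FPKM in WT. None of these passed over all genes, with limma adjusted p between 0.302 and 0.458. They were the 3 genes of smallest p in each list, and Nop10 overlapped between the groups. Other genes of the same particles differed less. The H/ACA core genes Dkc1 and Gar1 had log2 fold changes of 0.02 and -0.08. Lsm2, Lsm3, Lsm5, Lsm6 and Lsm8 were at -0.18, 0.05, -0.02, -0.25 and -0.09. Snrpb2, Snrpd3 and Snrpn were among the snRNP genes above 0, at 0.20, 0.14 and 0.20.

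Of 13 genes for proteins of the 7SK and 7SL particles, 7 had a log2 fold change above 0 and 6 below (median 0.01). Srp14, of the signal recognition particle, was at 35.9 ± 0.44 FPKM in KO and 47.2 ± 5.18 FPKM in WT, the elongation cyclin Ccnt1 at 5.92 ± 0.42 and 4.67 ± 0.63, and Mepce, which caps 7SK RNA, at 11 ± 0.48 and 12.9 ± 0.69 FPKM in the same groups. Of 10 RNase P and MRP protein genes 4 were above 0 and 6 below (median -0.08), with Pop7 at 10.9 ± 1.67 FPKM in KO and 15.7 ± 1.64 FPKM in WT, Rpp25l at 9.01 ± 3.15 and 12.4 ± 1.76 and Rpp21 at 5.40 ± 0.74 and 6.49 ± 1.12 FPKM. Of 19 tested host genes of snoRNAs and miRNAs, 9 were above 0 and 10 below (median -0.04). The snoRNA host Epb41l4aos was at 3.47 ± 0.81 FPKM in KO and 6.87 ± 1.37 FPKM in WT (log2 fold change -0.82, SE 0.18, limma adjusted p = 0.302), and Snhg12 at 2.87 ± 0.75 FPKM in KO and 3.81 ± 0.07 FPKM in WT.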

How the data were processed

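The authors deposited 1 table of FPKM values per gene for 6 libraries, with gene positions, lengths, strands and biotypes per the file headers. The builds GRCm38 and mm10 come from the submitters' processing notes; the sources used here name no aligner, counter or annotation version, and do not say whether strand was used. FPKM times gene length came in whole steps for 100% of values (tolerance 0.01 reads), which gave the reads per gene. Genes with a mean of at least 1 FPKM were compared with limma 3.58.1 in R 4.3.3 (log2(FPKM + 1), variance trend, Benjamini-Hochberg, threshold 0.05). The same fit was run on simulated data. There the changed genes had more reads than most members have, so that run does not cover genes as low as these. A longer gene is any gene of the table outside these 5 biotypes that overlaps a member on either strand, the one of highest mean FPKM where there were several. Of the 55 members, 40 matched the RefSeq gene table (GRCm38.p6) by symbol. Sequences and the longer gene of 1 member are not reported here.

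The members and lists were chosen with earlier results of these data known. Named were the 6 members with most reads in each biotype, up to 6 per direction of smallest p with at least 10 reads, members at the threshold, imprinted and Pol III RNAs, the longer genes of named members and 3 genes per partner list; other members are given by their values. Same-numbered libraries deviated together across genes (r = 0.175, 0.145 and 0.33 for numbers 1, 2 and 3), so a fit with the number as a block was also made, although KO1 and WT2 correlated at 0.283. Alternatives were pseudocounts of 0.5 and 0.1, a pseudocount on the read scale, no filter, at least 10 reads, voom, quantile normalization, a common sum, no variance trend, and leaving out each library or both numbered 3.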

Additional observations from a re-analysis of the deposited data

How the results depend on the processing

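No member passed the threshold under 16 of 17 alternative fits, and Gm23935 did without WT3, which put the number of members called between 0 and 1 over the fits without 1 library. Over all genes the 1 call became 0 with no filter, quantile normalization, a common sum or no variance trend, and 0 with the replicate block; without 1 library it ran between 0 and 9. The members higher in KO at an unadjusted p under 0.05 (8) were 2 with the pseudocount on the read scale, no filter or at least 10 reads, 3 with voom, and between 4 and 10 without 1 library. Those lower in KO (2) were 1 with the pseudocount on the read scale or voom, 0 with at least 10 reads, and between 1 and 4 without 1 library. The members' median stayed between 0.10 and 0.35, the block changed no call of a member, and 37 members shared a strand with a longer gene when only that strand counted.

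Of 47 genes given with a log2 fold change or named by the rule, 9 changed sign somewhere, in 18 of 785 values. Without 1 library, the log2 fold change ran between -0.02 (without WT2) and 0.18 for Gm22540, -0.07 (without KO3; -0.0017 without KO1) and 0.20 for Gm22771, -0.05 (without WT2) and 0.53 for Gm24966, and -0.09 (without KO2) and 0.81 for Mir5125. It ran between -0.14 (without WT1) and 0.79 for Snord55, -0.62 and 0.62 (without WT2; 0.20 without KO3) for Mir132, and -0.63 and 0.36 (without WT2; 0.25 without KO2, 0.13 without WT1) for Gm24993. For Gm25492 it ran between -0.76 and 0.31 (without WT3; 0.15 without KO3), and for Gm26397 between -0.43 and 0.51 (without KO3; 0.24 without WT3). Without both libraries numbered 3 it was -0.05 for Gm22771, 0.73 for Gm25492 and 0.85 for Gm26397. With a threshold of at least 1 or at least 5 FPKM there would be 135 or 26 members. Of the 55 members 37 rest on fewer than 10 reads, and 30 had a spread index above 2. Whether counting error alone gives such an index at these read numbers was not tested, nor was the cause of the changes.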
